A study of Mus musculus with 34 samples.

Results

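The 10 genes described here are both subunits of the iron store ferritin, the heavy chain Fth1 and the light chain Ftl1, and 8 genes of the antioxidant programme of the transcription factor NRF2, namely Hmox1, Srxn1, Txnrd1, Nqo1, Gclm, Prdx1, Txn1 and Slc7a11. They were chosen by name from 25852 gene rows, and all 10 were found. Their levels were read in 2807 cells with over 1000 transcripts, of which 904 came from WT mice, 1573 from Tln1∆MC mice and 330 from Myh11-GFP mice. A level is the number of transcripts of a gene per 10000 transcripts of the same cells, with genes named Gm and a number left out of the total.

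Mast cells (MCs) of untreated mouse ear skin were sorted as CD45+Lin-YFP+ single cells and sequenced by mCEL-Seq2, which counts the 3′ ends of RNA molecules by unique molecular identifiers (UMIs). All MC mice were males of 7 weeks with Mcpt5-Cre+/- and the R26 LSL:YFP reporter; the labels give their strain as C57BL/6J, and by the study's methods such crosses carried the albino Tyr c-2J/c-2J alleles (C57BL/6J-Albino). They were Tln1+/+ in the 3 WT littermate controls and Tln1fl/fl in the 3 Tln1∆MC mice, which lack the integrin adaptor talin-1 in cells that express Cre. Mcpt5 is active in connective tissue mast cells, so the reporter marks cells by this promoter alone, and both genotypes carried Cre. Sorted CD45-GFP+ cells from the ears of Myh11-GFP/+ mice filled 4 further libraries, and here the Myh11 promoter marks smooth muscle cells and related mural cells; the number of these mice was not given. Each WT mouse gave 4 libraries, and Tln1∆MC mice 1, 2 and 3 gave 4, 4 and 10.

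Ferritin is a shell of heavy and light chains. The heavy chain oxidizes iron for storage and the light chain helps to build the mineral core. NRF2 is held low by KEAP1 and, once released, acts through antioxidant response elements on genes for haem breakdown, thioredoxin and glutathione, and both ferritin chains are also known as its targets. Ferritin output is also set at translation by iron regulatory proteins, which RNA counts do not show. Mast cells are long-lived tissue cells packed with granules.

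WT mice gave 272 to 338 cells each and Tln1∆MC mice 285 to 934, and a library held between 297694 and 964834 transcripts. MC markers were at 651 to 887 per 10000 in the 6 mice and at 0.194 in Myh11-GFP cells, in which 6 of the 10 listed MC markers were at 0, whereas smooth muscle markers were at 93.9 and pericyte markers at 130.8 in Myh11-GFP cells and at most at 0.393 in any MC mouse. Fibroblast markers stood at 187.4 in the Myh11-GFP cells, so that gate also held cells with fibroblast transcripts. Of the MC libraries, 5 had over 50 per 10000 from macrophage, keratinocyte and fibroblast markers together, 4 of them from WT mice and 1 from Tln1∆MC mouse 3, and 4 of these 5 libraries held barcodes with over 20000 transcripts outside Gm genes and with MC markers at 28.7 to 167.8 per 10000. The largest, with 399798 transcripts or 7.63% of those of Tln1∆MC mouse 3, had MC markers at 28.7 and keratinocyte markers at 291 per 10000. Results that rest on these libraries or barcodes are given with and without them, or the barcode is named where no such value was computed. Transcripts of Gm genes took 14.2% to 58.01% of the total by mouse. Tln1 itself was at 4.51, 5.92 and 6.71 (WT mice 1 to 3) and at 5.57, 4.33 and 3.63 (Tln1∆MC mice 1 to 3), so the genotypes overlapped; whether the counted 3′ end lies in the deleted stretch was not given, and Tln1 therefore does not check the labels.

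NRF2 binds the antioxidant response element, whose core is TGACNNNGC. Promoter windows of RefSeq for GRCm38.p6, from 250 bases before to 50 bases after a start, were searched on both strands. Such windows were held for 9 of the 10 genes, with no entry for Hmox1, and these 9 genes had 12 windows. The core was found in 4 of the 12 windows, 1 for each of 4 genes. It was in 12.4% of all 32851 windows, and 13.99% of the 27025 genes with a window had it in at least 1. In all 4 it read on the strand opposite to the gene, where the core appears as GCNNNGTCA and is set in capitals below with 8 bases on either side, because these are the letters the 4 genes share.
Srxn1, chr2:152105544-152105568, plus strand: agtgggcaGCTAGGTCAgagtgaga
Txnrd1, chr10:82859106-82859130, plus strand: ggatttttGCTTTGTCAttctgaca
Gclm, chr3:122245415-122245439, plus strand: tcccgggcGCACCGTCAactctcac
Prdx1, chr4:116685458-116685482, plus strand: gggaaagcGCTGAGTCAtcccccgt
The Txnrd1 window belongs to a start inside the annotated span of the gene. A match describes the letters only, and its absence from the short windows of the other 5 genes says nothing about NRF2 at their enhancers. Coordinates of the genes themselves are from GENCODE M21 for GRCm38, the build named for the deposited tables.

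The heavy chain Fth1 (chr19:9980598-9985098) and the light chain Ftl1 (chr7:45457944-45459884) were the most abundant of the 10 genes in MCs. Levels of Fth1 in WT mice, given in the order of their numbers here and throughout, were 12.3, 15.2 and 12.4 per 10000, while Tln1∆MC mice had 9.67, 10.1 and 16.1. Levels of Ftl1 were 12.2, 10.6 and 9.45 (WT) and 7.59, 7.52 and 15.7 (Tln1∆MC). Tln1∆MC mouse 3 was the highest of all 6 mice in both chains, whereas Tln1∆MC mice 1 and 2 were the lowest. Fth1 was above Ftl1 in 6 of 6 mice, by a mean of 2.15 ± 1.67 per 10000 (SD, n = 6; exact sign-flip permutation p = 0.0312, the smallest that 6 mice allow). This order turned in Tln1∆MC mouse 3 without barcodes over 20000 transcripts, with Fth1 at 16.65 and Ftl1 at 17.2. It also turned there without the 5 libraries rich in markers of other cells, at 16.88 and 18.01. In the other mice Fth1 stayed above Ftl1 in both cases. The result in 6 of 6 mice thus rests on those barcodes and libraries, and its p was not computed without them. A UMI of Fth1 was found in 68.9% of MCs after each cell had been thinned to 1000 UMIs outside Gm genes (exact 95% binomial interval 66.9% to 70.8%, 2195 cells) and one of Ftl1 in 61.7% (59.7% to 63.8%). Without thinning the shares were 83.2% and 79.7%. These pooled shares lean on Tln1∆MC mouse 3, which gave 923 of the 2195 cells. By mouse the share for Fth1 was lowest in Tln1∆MC mouse 2, at 49.5%, and that for Ftl1 in Tln1∆MC mice 1 and 2, at 47.1% and 45.5%. Both chains were found in the same thinned cell in 57.6% of cells of Tln1∆MC mouse 3 and in 23.05% to 48.5% in the other 5 mice. Their counts per thinned cell were only weakly related, with a Spearman correlation within mice of 0.0340 to 0.142, which describes sparse counts and no more. A single cell of 6610 transcripts held 92 of the 1183 Fth1 UMIs of Tln1∆MC mouse 2, or 7.78%.

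The other genes followed in the order Prdx1, Txn1, Srxn1, Hmox1, Txnrd1, Gclm, Slc7a11 and Nqo1 by their mean over the 6 mice. The peroxiredoxin Prdx1 (chr4:116685544-116700822), which reduces hydrogen peroxide, was at 2.17 ± 0.430 per 10000 (SD, n = 6) and its reductant thioredoxin Txn1 (chr4:57943373-57956411) at 1.92 ± 0.356. Prdx1 was above Txn1 in 5 of 6 mice, and Txn1 above Srxn1 in 5 of 6 (exact sign-flip p = 0.0938 for each), so neither step exceeded the spread over mice. Hmox1 and Txnrd1 were each the higher of the pair in 3 of 6 mice and could not be ordered (p = 0.500), nor could Txnrd1 and Gclm (4 of 6 mice, p = 0.188) or Slc7a11 and Nqo1 (4 of 6, p = 0.188). The steps from Ftl1 to Prdx1, from Srxn1 to Hmox1 and from Gclm to Slc7a11 went the same way in 6 of 6 mice (p = 0.0312 each). These 9 steps between neighbours were tested on the mice that also set their order, so the p-values are unadjusted and describe the order only.

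**Figure D1:**
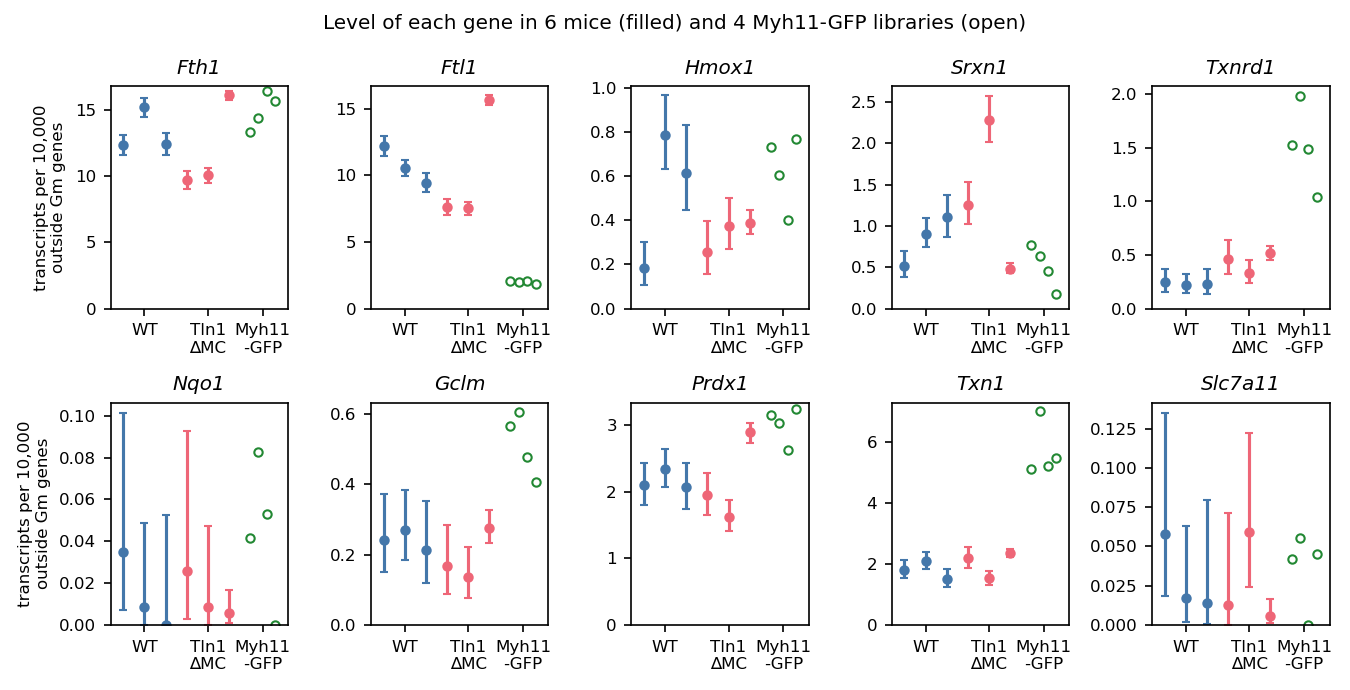
Level of each gene, in transcripts per 10000 outside Gm genes on linear axes that start at 0. Filled points are the 3 WT and 3 Tln1∆MC mice in the order of their numbers, with exact 95% Poisson intervals from UMIs, and open points are the 4 Myh11-GFP libraries; Ftl1 lies near 2 in all 4 of these libraries and at 7.52 or above in every mouse.

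Between MCs and Myh11-GFP cells, the chains of ferritin went apart. Ftl1 was at 10.5 ± 3.10 per 10000 in MCs (SD, n = 6 mice) and at 2.03, 1.96, 2.07 and 1.81 in the 4 Myh11-GFP libraries, 5.28-fold higher in MCs, and all 30 MC libraries, from 3.87 to 25.5, were above the highest of the 4. Fth1 was at 12.6 ± 2.63 in MCs and at 13.3, 14.4, 16.4 and 15.6 in the Myh11-GFP libraries, with a ratio of 0.857. The ranges of Fth1 overlapped, since MC libraries ran from 7.20 to 21.4. Ftl1 was 1 of 639 genes (27.6% of the 2312 genes with at least 1 transcript per 10000 on either side) that were at least 2-fold higher in MCs, and 34.5% of these genes had all 6 mice above all 4 libraries, so a difference of this kind is common between these cells. With 1 set of Myh11-GFP libraries and no number of mice, no test was made.

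The ratio of Ftl1 to Fth1 shows this per library. It was 0.989, 0.694 and 0.760 (WT) and 0.785, 0.747 and 0.971 (Tln1∆MC), so the genotypes overlapped. In the 4 Myh11-GFP libraries it ran from 0.116 to 0.152 with a median of 0.131. In the 30 MC libraries it ran from 0.362 to 1.39 with a median of 0.835, so no MC library reached down to the Myh11-GFP range. The lowest value, 0.362, came from the library of Tln1∆MC mouse 3 that held the barcode with 399798 transcripts, and this barcode alone had Ftl1 at 1.21 and Fth1 at 13.7 per 10000. Without the 5 libraries rich in markers of other cells the range was 0.468 to 1.39. The ratio of 0.971 for Tln1∆MC mouse 3 as a whole also depends on such barcodes. Without those over 20000 transcripts this mouse had Ftl1 at 17.2, above Fth1 at 16.65 per 10000. After thinning, a UMI of Ftl1 was found in 14.7% of Myh11-GFP cells (exact interval 10.9% to 19.1%) against 45.5% to 71.7% of the MCs of each mouse, and a UMI of Fth1 in 75.2% (70.02% to 79.97%) against 49.5% to 78.1%. Reads that fit several places were discarded before deposit and ferritin genes have many processed copies in the genome, so the absolute levels of both chains are uncertain; 2 named pseudogenes of Ftl1 are annotated and neither is a row of the tables.

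**Figure D2:**
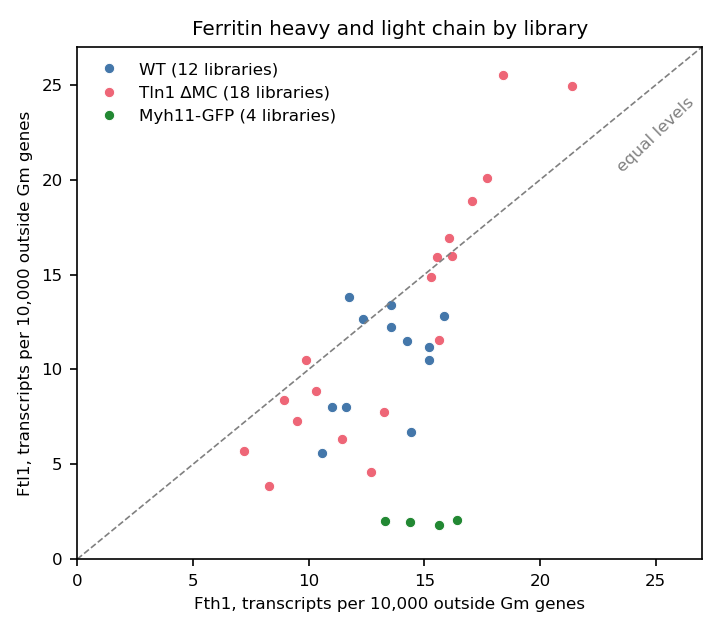
Ftl1 against Fth1, both in transcripts per 10000 outside Gm genes, with 1 point for each of 12 WT, 18 Tln1∆MC and 4 Myh11-GFP libraries and a dashed line at equal levels. The Myh11-GFP libraries have the Fth1 of MC libraries, at 13.3 to 16.4, but lie far below the line with Ftl1 at 1.81 to 2.07.

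Thioredoxin and its reductase were higher in Myh11-GFP cells. Txn1 was at 5.12, 6.998, 5.21 and 5.46 per 10000 in the 4 Myh11-GFP libraries, 2.95-fold above the MC mean of 1.92, and all 30 MC libraries lay below the lowest of them. Txnrd1 (chr10:82833951-82897712), which recharges thioredoxin with NADPH, was at 1.53, 1.98, 1.49 and 1.04 in these libraries against 0.333 ± 0.128 in MCs (SD, n = 6), 4.68-fold higher, again with all 30 MC libraries below. Of the 2312 genes, 26.8% were at least 2-fold lower in MCs and 32.9% had all 6 mice below all 4 libraries. Gclm (chr3:122245557-122270732), the regulatory subunit of the enzyme that starts glutathione synthesis, was at 0.218 in MCs and 0.528 in Myh11-GFP cells (exact 95% Poisson interval 0.416 to 0.661), and 29 of 30 MC libraries were below the lowest Myh11-GFP library. It did not reach 1 transcript per 10000 on either side and is outside those 2312 genes. Prdx1 was at 3.001 in Myh11-GFP cells, above the mean of 2.17 in MCs but within the range of the MC libraries, 1.32 to 4.23. The value of 4.23 came from the library with the barcode of 399798 transcripts, which had Prdx1 at 7.23 per 10000. Of the 30 MC libraries, 24 lay below all 4 Myh11-GFP libraries and 2 lay above all of them.

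Hmox1, Srxn1, Nqo1 and Slc7a11 did not separate the cells. Srxn1 (chr2:152105516-152111376), sulfiredoxin, which repairs overoxidized peroxiredoxins, had 1.09 ± 0.661 in MCs (SD, n = 6) and 0.181 to 0.773 in the Myh11-GFP libraries. Hmox1 was at 0.434 ± 0.226 in MCs and at 0.398 to 0.768 in the Myh11-GFP libraries. Nqo1 (chr8:107388225-107403206), a quinone reductase and a standard NRF2 marker, gave 10 UMIs in all MCs and 7 in Myh11-GFP cells, and Slc7a11 (chr3:49892526-50443614), the cystine importer, gave 19 and 5. Neither gene can be compared at this depth, at which 3 transcripts of a mouse stand for 0.00573 to 0.0429 per 10000. Of 10 genes, 6 had at least 1 transcript per 10000 on either side, and among these Ftl1 was 2-fold higher in MCs, Txn1 and Txnrd1 were 2-fold lower and Fth1, Srxn1 and Prdx1 were within 2-fold. Srxn1 was 1.94-fold higher in MCs, near the 2-fold limit, and its place within that limit did not hold under all alternatives. Its ratio ran from 1.23 with Gm genes in the total to 2.67 with levels averaged over cells. Txnrd1 is among the 6 only through its level in Myh11-GFP cells. At 0.333 in MCs, any level of 1 or more in Myh11-GFP cells makes it 2-fold lower, so this call follows from the cut.

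Regulators and partners of the same pathways were read from lists drawn up by function. Of 45 listed genes at 1 per 10000 on either side, 11 (24.4%) were at least 2-fold higher in MCs and 10 (22.2%) at least 2-fold lower, no more than the 27.6% and 26.8% over all 2312 genes, so the values below describe single genes. Of 10 listed NRF2 regulators, 6 were at 1 per 10000 on either side. The autophagy receptor Sqstm1, which binds KEAP1 and is itself an NRF2 target, was at 20.6 to 44.2 in MC mice against 3.47 to 4.17 in Myh11-GFP libraries, whereas Bach1, a haem-sensing repressor of Hmox1, was at 0.324 to 0.541 against 3.43 to 4.52, and Maff, a small partner of NRF2 and BACH1, at 0.144 to 0.302 against 1.81 to 2.74. In the glutathione list, 5 of 11 reached that level. Slc3a2, the heavy chain that pairs with Slc7a11 and other amino acid transporters, was at 9.33 in MCs and 3.37 in Myh11-GFP cells, Gstm1 at 12.6 and 5.50, and Gclc, the catalytic partner of Gclm, at 0.662 and 1.70. Mitochondrial Sod2 was at 0.442 and 1.90, and the haem transporter Slc48a1 at 1.17 and 0.444. In the ATF4 list, Slc7a5, which pairs with Slc3a2, was at 3.90 in MCs and 0.0764 in Myh11-GFP cells, while the stress gene Ddit4 was at 0.0745 and 3.91 and Atf5 at 0.200 and 1.39. In the thioredoxin list, Txnip, an inhibitor of thioredoxin, was at 4.12 and 1.93, and Prdx2 at 0.497 and 1.01. Bach1, Maff, Sod2, Ddit4, Atf5, Prdx2, Slc7a5 and Slc48a1 reached 1 per 10000 only on the side where they were high. At their levels on the other side, a 2-fold difference follows from this cut. Of the 14 genes listed for iron import, export and control, only 1 reached 1 per 10000 on either side, and it was within 2-fold; among NADPH enzymes the same held for 1 of 6. The median log2 ratio of MCs to Myh11-GFP cells was 0.24 for the NRF2 regulators, 0.64 for the glutathione list and -0.36 for the thioredoxin list, beside 0.07 over all 2312 genes. Haem genes had 2 of 9 at that level, with a median of 1.09, and the superoxide and peroxide enzymes 2 of 3, with a median of -1.06. ATF4 genes had 5 of 10 and a median of 0.58. Of 16 immediate early genes 15 reached the level, 4 of them 2-fold higher in MCs and 2 lower, and of 7 heat shock genes 5, with 1 each way.

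Within the Myh11-GFP gate, cells were divided at their library's median of Acta2 plus Myh11, both smooth muscle genes. Hmox1 (chr8:75093621-75100589), which breaks down haem and frees iron, was at 0.172, 0.188, 0.376 and 0 per 10000 in the cells above the median of the 4 libraries, and at 1.26, 0.935, 0.420 and 1.34 in the cells at or below it. It was lower in the Acta2 and Myh11 high cells of 4 of 4 libraries, although in 1 library the values rest on 7 and 8 UMIs. Over the gate there were 14 Hmox1 UMIs in the high and 75 in the low cells, with 36 to 47 cells on each side of a library. A single low cell of library 13, with 11133 transcripts outside Gm genes, held 12 of the 31 Hmox1 UMIs of the low cells there. It also held 13 of their 57 Ftl1 UMIs, and levels without this cell were not computed. Txnrd1 was also lower in the high cells of 4 of 4 libraries, at 1.25 against 1.83 over the gate, and so was Ftl1, at 1.71 against 2.23. The share of all genes lower in 4 of 4 libraries was not computed, so Hmox1, Txnrd1 and Ftl1 are not set apart from other genes. Fth1 was at 15.0 and 14.6 and Txn1 at 5.54 and 5.78, each higher in the high cells of 2 of 4 libraries. Fibroblast markers moved with this division, at 53.6 per 10000 in the high and 305 in the low cells, keratinocyte markers at 0.490 and 13.1, and Schwann cell markers at 0.208 and 3.30, while pericyte markers were at 139.7 and 122.9 and the median depth at 3871 and 3934 transcripts per cell outside Gm genes; the part of the fibroblast, keratinocyte and Schwann cell transcripts in the Hmox1 values was not tested. The number of mice behind these libraries is not known, and no test was made.

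**Figure D3:**
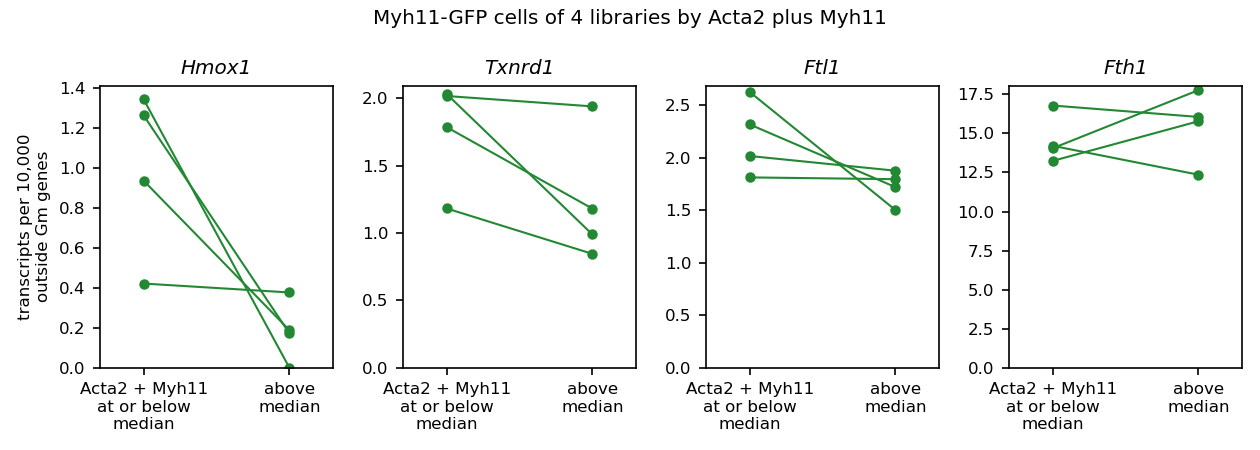
Levels of 4 genes in transcripts per 10000 outside Gm genes in the Myh11-GFP cells at or below and above their library's median of Acta2 plus Myh11, with 1 line for each of 4 libraries. Hmox1 falls from left to right in every library, by the least where it goes from 0.420 to 0.376, while the lines of Fth1 go both ways.

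The study compared MCs with and without talin-1, and none of the 8 genes that could be tested was called between the genotypes. All cells of a mouse were pooled, and log2 levels of 8601 genes were compared with limma. Of these, 0 (0%) were called lower and 0 (0%) higher at an adjusted p of 0.05, with 497 at an unadjusted p under 0.05, and Nqo1 and Slc7a11 had too few transcripts to enter the test. For Fth1 the log2 fold change of Tln1∆MC over WT was -0.19 ± 0.23 (SE; limma adjusted p = 0.938) and for Ftl1 it was -0.15 ± 0.29 (adjusted p = 0.957). The 3 Tln1∆MC mice lay on both sides of the 3 WT mice for both chains. The sign of Ftl1 turned to 0.02 without Tln1∆MC mouse 1 and to 0.03 without mouse 2, and both chains turned positive, at 0.04 and 0.08, with Gm genes in the total, a scaling that moved the median of all genes from -0.03 to 0.18. The median over the 8 genes was -0.10, beside -0.03 over all genes.

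Txnrd1 came nearest to a difference. WT mice had 0.243, 0.218 and 0.229 per 10000 and Tln1∆MC mice 0.462, 0.331 and 0.514. All 3 Tln1∆MC mice were above all 3 WT mice, as 5.34% of the 8601 genes were, while 6.31% had them all below. The log2 fold change was 0.87 ± 0.25 (SE) with an adjusted p of 0.732 by limma, and exact permutation of the levels gave p = 0.1, the smallest that 3 against 3 mice allow. WT values rest on 16 to 25 UMIs per mouse, and of the 269 UMIs in Tln1∆MC mouse 3 the barcode with 399798 transcripts held 15.6%. Without barcodes over 20000 transcripts this mouse was at 0.476 and the log2 fold change was 0.92 (adjusted p = 0.876), and it ran from 0.68 to 1.31 over the alternatives, past the threshold in none of them.

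The other members of the thioredoxin and glutathione arms overlapped between genotypes. Srxn1 levels were 0.520, 0.907 and 1.10 (WT) and 1.26, 2.29 and 0.483 (Tln1∆MC), the last of these the lowest of all 6 (log2 fold change 0.47 ± 0.49, adjusted p = 0.913). All 4 libraries of Tln1∆MC mouse 2, at 1.38 to 3.03, were above all 10 of Tln1∆MC mouse 3, at 0.201 to 0.777. Without Tln1∆MC mouse 2 the log2 fold change turned to -0.04. Txn1 levels were 1.82, 2.10 and 1.52 (WT) and 2.19, 1.54 and 2.37 (Tln1∆MC), and those of Prdx1 were 2.10, 2.35 and 2.07 (WT) and 1.95, 1.63 and 2.91 (Tln1∆MC). Tln1∆MC mouse 3 was the highest and mouse 2 among the lowest for both. Of the 1511 Prdx1 UMIs of Tln1∆MC mouse 3, 18.5% came from the largest barcode, without which and the other large ones this mouse was at 2.58. Gclm levels were 0.243, 0.270 and 0.215 (WT) and 0.167, 0.136 and 0.277 (Tln1∆MC), with only 13 to 31 UMIs outside Tln1∆MC mouse 3. Their log2 fold changes were 0.155 ± 0.22 for Txn1, -0.05 ± 0.23 for Prdx1 and -0.37 ± 0.32 for Gclm, with adjusted p of 0.951, 0.983 and 0.896 by limma; the sign of Prdx1 changed under 7 alternatives and that of Gclm under 1, to 0.095 with levels averaged over cells.

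Hmox1 was highest in a small set of cells with macrophage markers. Its levels were 0.185, 0.786 and 0.615 per 10000 (WT) and 0.256, 0.374 and 0.388 (Tln1∆MC), with overlap and a log2 fold change of -0.42 ± 0.46 (adjusted p = 0.924 by limma). In 32 cells with at least 1% of their transcripts from macrophage markers it was at 4.27 per 10000 (exact 95% Poisson interval 3.397 to 5.29, 83 UMIs) against 0.343 (0.307 to 0.382, 333 UMIs) in the other 2445. Such cells numbered 1, 16 and 6 (WT) and 1, 3 and 5 (Tln1∆MC). A single cell of WT mouse 2 was among the 32 and held 34 of their 83 Hmox1 UMIs, and 37.8% of the 90 of that mouse. Without this cell the other 31 were at 2.57 per 10000 (1.896 to 3.39, 49 UMIs), and WT mouse 2 was at 0.490. Also among the 32 was the barcode of WT mouse 3 with 54604 transcripts, with macrophage markers at 107.1 and fibroblast markers at 620.4 per 10000. This barcode had Hmox1 at 1.65, Fth1 at 12.6 and Ftl1 at 5.33 per 10000, and levels of the 32 cells without it were not computed. With the 32 cells left out, the log2 fold change was 0.08 (adjusted p = 0.992). In the same 32 cells Fth1 was at 19.3 (17.3 to 21.3) against 14.1 and Ftl1 at 15.4 (13.6 to 17.2) against 12.7, while Srxn1 was at 0.360 (0.145 to 0.741) against 0.864. These intervals cover counting error only, over cells of 6 mice that do not count as replicates. The mix of mice also differed, with 16 of the 32 cells from WT mouse 2.

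**Figure D4:**
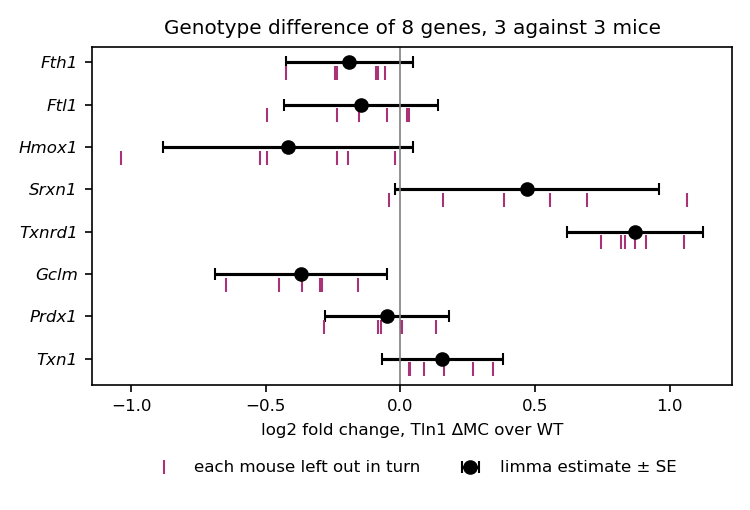
Log2 fold change of Tln1∆MC over WT for the 8 genes with enough transcripts, with limma's SE as bars (3 against 3 mice), and ticks for the estimates when each mouse was left out in turn. Txnrd1 is the only gene whose ticks all stay above 0.6, from 0.74 to 1.05; the ticks of Ftl1, Srxn1 and Prdx1 lie on both sides of 0.

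Mice also fell into sets across the genotypes. The few transcripts on barcodes of the set not in use in a library were most alike between WT mouse 1 and Tln1∆MC mouse 1 (r = 0.742 over 1513 genes, against at most 0.457 with any other mouse), whereas the other 4 mice resembled each other, with the closest at 0.844 to 0.853. Red cell transcripts were at 4.10 and 15.4 per 10000 in WT mouse 1 and Tln1∆MC mouse 1 and at most 0.174 in the others. Within these sets the Ftl1 difference was -0.68 between Tln1∆MC mouse 1 and WT mouse 1 on the log2 scale, and -0.41 for Tln1∆MC mouse 2 and 0.65 for Tln1∆MC mouse 3 against the mean of WT mice 2 and 3. For Txnrd1 the same differences were 0.90, 0.55 and 1.17, and for Fth1 they were -0.35, -0.45 and 0.23. With the sets as a term in the fit, 2 genes of all those tested were called, both lower, none of the 8 among them, and Txnrd1 had a log2 fold change of 0.87 ± 0.26 (SE; adjusted p = 0.591 by limma). On those unused barcodes Fth1 was at 24.4 and 25.2 per 10000 in WT mouse 1 and Tln1∆MC mouse 1 and at 7.71 to 10.1 in the other 4 mice, whereas the cells of the former had 12.3 and 9.67; the part of such transcripts in the levels of cells was not tested.

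None of the genes of the pathway lists was called between genotypes, among 10 of 10 NRF2 regulators tested, 9 of 11 of the glutathione list, 9 of 10 of the thioredoxin list, 5 of 6 NADPH enzymes, 3 of 3 enzymes against superoxide and peroxide, 8 of 9 haem genes, 12 of 14 iron genes, 5 of 10 ATF4 targets, 15 of 16 immediate early genes and 6 of 7 heat shock genes. Their median log2 fold changes ran from -0.28 for superoxide and peroxide enzymes to 0.10 for NRF2 regulators. Examples, each among the 2 largest values of its list at 0.5 per 10000 or more, were Sqstm1 (-0.40 ± 0.30, SE), Gpx1 (-0.38 ± 0.18), Prdx6 (-0.30 ± 0.22), Cat (-0.33 ± 0.23), Fech (-0.32 ± 0.24), the mitochondrial iron importer Slc25a28 (0.37 ± 0.20) and Atf3 (-0.95 ± 0.35), with adjusted p between 0.814 and 0.885 by limma.

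Sorted MCs differed in their content of immediate early transcripts such as Fos, Jun and Egr1, and the 10 genes were compared between cells high and low in this share. The cells of each library were put into 3 equal parts by it, and the upper and lower parts were summed per mouse and compared with limma with the mouse as a block. Of 6970 genes outside the immediate early list, 214 (3.07%) were higher and 2.27% lower in the upper part, and of the 8 genes tested 1, Ftl1, was called. WT mice had Ftl1 at 12.2, 14.6 and 11.4 per 10000 in the upper part against 10.6, 8.91 and 9.16 in the lower part. Tln1∆MC mice had 8.94, 9.03 and 20.1 against 5.28, 6.27 and 11.8. It was higher in the upper part in 6 of 6 mice, with a log2 difference of 0.55 ± 0.11 (SE; limma adjusted p = 0.00567; exact sign-flip permutation p = 0.0312).

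For Fth1 no such difference was called. WT mice had 11.5, 15.1 and 13.2 in the upper and 11.5, 15.6 and 11.1 in the lower part, and Tln1∆MC mice 9.57, 9.96 and 16.7 against 9.53, 11.5 and 15.0. Fth1 was higher in the upper part in 4 of 6 mice, with a log2 difference of 0.03 ± 0.10 (SE; adjusted p = 0.903 by limma). The ratio of Ftl1 to Fth1 was higher in the upper part in 6 of 6 mice, by 0.52 ± 0.31 on the log2 scale (SD, n = 6; exact sign-flip p = 0.0312), with 0.06 as its lowest value. The ratio was compared after both chains had been seen.

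**Figure D5:**
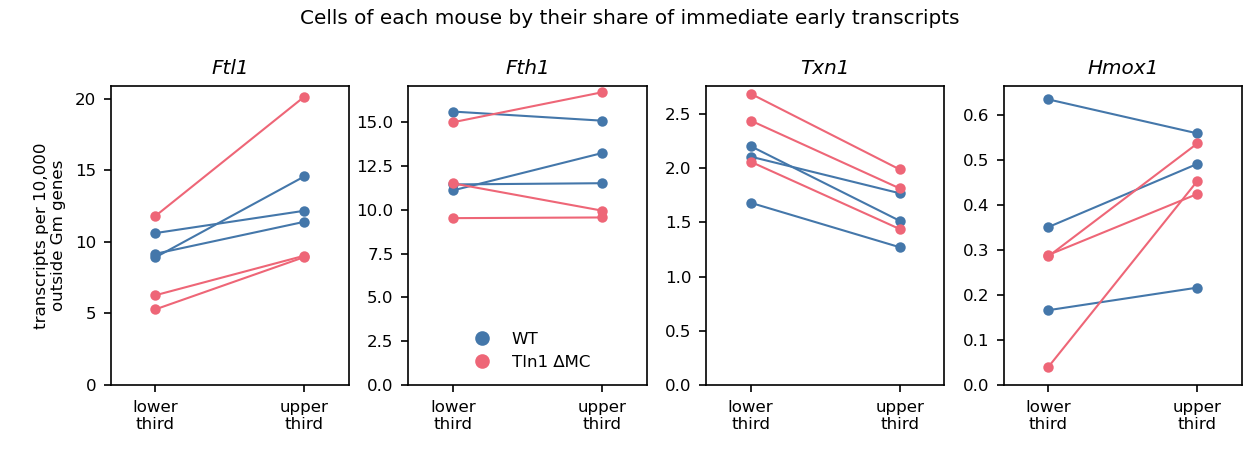
Levels in transcripts per 10000 outside Gm genes in the lower and upper of 3 equal parts of MCs by their share of immediate early transcripts, with 1 line for each of 3 WT and 3 Tln1∆MC mice. All 6 lines rise for Ftl1 and all 6 fall for Txn1, the lines of Fth1 go both ways, and Hmox1 rises in 5 of 6 mice from values that rest on 1 to 66 UMIs.

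Txn1 was lower in the upper part of 6 of 6 mice, by 0.43 ± 0.12 on the log2 scale (SE), and stood just outside the threshold (adjusted p = 0.0516 by limma; exact sign-flip p = 0.0312). WT mice had 1.52, 1.77 and 1.27 in the upper against 2.21, 2.11 and 1.68 in the lower part, and Tln1∆MC mice 1.82, 1.44 and 1.99 against 2.44, 2.06 and 2.69. Over the alternatives its adjusted p ran from 0.0317 without barcodes over 20000 transcripts to 0.661 in cells thinned to 1000 UMIs, and it passed the threshold under 5 of them. In the thinned cells the log2 difference of Txn1 was smaller, at -0.18 ± 0.19 (SE). Hmox1 was higher in 5 of 6 mice, with a log2 difference of 0.88 ± 0.36 (SE; adjusted p = 0.167 by limma), and its value was 3.21 in Tln1∆MC mouse 1, from 13 UMIs against 1. Srxn1 had 201 UMIs in the upper and 27 in the lower part of Tln1∆MC mouse 2, at 4.32 and 0.773 per 10000, but it stood at 0.213 and 0.583 in Tln1∆MC mouse 3, and it was higher in 3 of 6 mice (0.28 ± 0.36, adjusted p = 0.697). Txnrd1, Gclm and Prdx1 had log2 differences of 0.16, -0.16 and -0.14, with adjusted p of 0.759, 0.831 and 0.613. The median over the 8 genes was 0.09, beside -0.06 over all genes tested. Whether these differences varied with genotype could not pass a test, since exact two-sided permutation of 3 against 3 mice goes no lower than p = 0.1. For Hmox1 the difference was 0.36, 0.47 and -0.18 in WT mice and 3.21, 0.89 and 0.54 in the Tln1∆MC mice, all 3 of the latter above all 3 of the former, which gives this smallest p. The share of all genes tested that separate in this way was not computed, so Hmox1 is not set apart from other genes. For Ftl1 the p was 0.2.

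The parts were not alike in other respects. The median of transcripts per cell outside Gm genes was higher in the upper part of WT mouse 1 and Tln1∆MC mice 1 and 2. It was lower there in the other mice. In Tln1∆MC mouse 2 it was 3583 against 2130, and in WT mouse 2 it was 2252 against 3349. Gm genes took less of the upper part in 4 mice (44.7% against 59.9% in WT mouse 1) and more in WT mouse 2 and Tln1∆MC mouse 3 (15.6% against 12.02%). Keratinocyte markers were at 2.77 in the upper and 54.7 per 10000 in the lower part of Tln1∆MC mouse 3, which holds the largest barcode, at 7.81 and 58 in WT mouse 2, and at 2.61 and 20.2 in WT mouse 1. Fibroblast markers were at 6.53 in the upper and 186.7 in the lower part of WT mouse 2, at 1.05 and 16.07 in WT mouse 1, and at 0.872 and 30.2 in Tln1∆MC mouse 1. Macrophage markers were at 15.8 and 67.8 in WT mouse 2. MC markers were lower in the lower part of 4 of 6 mice, by the most in WT mouse 2 with 914.9 against 657, and higher there in Tln1∆MC mice 1 and 2. Without barcodes over 20000 transcripts the Ftl1 difference was 0.44 (adjusted p = 0.00417), without the 5 libraries rich in other markers 0.45 (adjusted p = 0.0132), and in cells thinned to 1000 UMIs 0.55 (adjusted p = 0.0190). It was 0.45 in cells with at most 30% Gm transcripts (adjusted p = 0.145), past the threshold no longer.

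Some related genes also rose in the upper part, where 3.07% of all 6970 genes did, and with lists of 3 to 10 genes these counts describe single genes. Sqstm1 was higher in the upper part in 6 of 6 mice, at a mean of 36.8 against 27.6 per 10000 (log2 difference 0.40 ± 0.10, adjusted p = 0.0227 by limma), 1 of 10 NRF2 regulators tested. Gclc was at 0.857 against 0.524 (0.74 ± 0.19, adjusted p = 0.0329), 1 of 8 of the glutathione list, and Txnip at 6.17 against 2.82 (1.14 ± 0.11, adjusted p = 7.58e-06), 1 of 8 of the thioredoxin list. Of 6 ATF4 genes tested 3 rose, namely Atf4 (0.74 ± 0.11), Slc7a5 (0.65 ± 0.11) and Ddit3 (0.62 ± 0.16), although the median of that list was -0.32, and of 6 heat shock genes 3 rose, Dnajb1 (1.35 ± 0.13), Hspa8 (0.70 ± 0.14) and Hsp90aa1 (0.35 ± 0.09), with a median of 0.81. None of the 5 NADPH enzymes, 3 superoxide and peroxide enzymes, 7 haem genes or 8 iron genes tested was called in either direction, and no gene of any list was called lower. Among those, Tkt had -0.40 ± 0.17 (adjusted p = 0.178) and Cat 0.37 ± 0.23 (adjusted p = 0.381).

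Over the 30 MC libraries, log2 levels of 1631 genes with a mean of at least 1 per 10000 were set beside those of the 3 genes of iron and haem. Fth1 was most like Tmem158 (Pearson r = 0.797), Rpl38 (0.791), Ftl1 (0.787), Rpl10-ps3 (0.782) and Rps10 (0.775), of which Rpl38 and Rps10 encode ribosomal proteins and Rpl10-ps3 is named as a pseudogene of one. Ftl1 was most like Gmfg (0.886), Ramp1 (0.866), Eif4a1 (0.805), Tmsb10 (0.802) and Rplp1 (0.801). Hmox1 was most like Arhgdia (0.679), Rabac1 (0.675), Aes (0.655), Cma2 (0.653) and Vamp8 (0.644). These libraries come from 6 mice and share their depth and their Gm content, with which log2 Fth1 had an r of -0.653 and log2 Ftl1 one of -0.549, so the values describe likeness only.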

How the data were processed

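Single cells had been sorted with doublets excluded, and no doublet caller was run here. Per the labels' processing notes and the study's methods, the authors demultiplexed with bcl2fastq 2.17.1.14, aligned with BWA 0.6.2-r126 to mouse gene models of mm10, discarded reads with several places, merged overlapping loci, counted UMIs of 6 bases and turned them into transcript estimates. The deposited tables hold these transcript counts, unscaled, for 2 sets of 96 barcodes in each of 34 libraries; every value went back to whole UMIs of 4096 possible ones within 1e-11. Each label names 92 cells, and 17 kept cells were on barcodes of the set not in use. No cell had identical values in 2 libraries; barcodes are well positions, so all libraries share them.

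Cells with over 1000 transcripts were kept, with ERCC spike-in rows left out. Sums per mouse, with the number after the genotype in the titles taken as the mouse, were scaled to 10000 transcripts outside Gm genes, and genes that reached 10 transcripts in 3 or more sums were compared as log2(level + 0.01) with limma 3.58.1 (trend, two-sided, Benjamini-Hochberg) in R 4.3.3, which understates changes of low genes. Other steps used Python 3.11.15. The mouse is the replicate. Beside limma, exact two-sided permutations over mice were used. Genes named from the pathway lists were those called, at most 5 a list by size at 0.5 per 10000 or more, otherwise the 2 largest; likeness named 5 genes. The members and lists were chosen with earlier results of these data known. Intervals and limits of 3 transcripts cover counting error only. Methods and values together gave the unit. A count model planned as an alternative was not run, because the deposited columns were not recorded as counts; limma on sums of the recovered whole UMIs was.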

Additional observations from a re-analysis of the deposited data

Results flagged for a closer look

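In 70 groups of 4 to 10 libraries or mice, 5 had 1 value far from the others by Dixon's test at 95%, where chance gives about 1 in 20. Txnrd1 was at 0.548 per 10000 in library 13 of WT mouse 1, against 0.143 to 0.173 in its other 3 libraries, and at 0.631 in library 1 of Tln1∆MC mouse 1, against 0.386 to 0.417. Prdx1 was at 1.32 in library 11 of Tln1∆MC mouse 2, against 1.72 to 1.74. The log2 difference of Hmox1 between the upper and lower parts by immediate early share was 3.21 in Tln1∆MC mouse 1 and -0.18 to 0.89 in the other mice. That of Txnrd1 was -0.33 in Tln1∆MC mouse 3 and 0.12 to 0.38 in the others, and the lower part of this mouse holds the barcode with 399798 transcripts, which had Txnrd1 at 1.06 per 10000.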

How the results depend on the processing

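With Gm genes in the total, 42 genes were called lower and 3 higher between genotypes, the median of all genes moved from -0.03 to 0.18, and the log2 fold changes of Fth1, Ftl1 and Prdx1 became 0.038, 0.081 and 0.18. With the sets of mice as a term 2 genes were called lower. Leaving out each mouse gave 0 to 15 lower, with 15 without Tln1∆MC mouse 1 and 1 without WT mouse 1, and ranges of -0.50 to 0.032 for Ftl1, -0.043 to 1.07 for Srxn1 and -0.28 to 0.13 for Prdx1. Hmox1 became 0.078 without the cells with macrophage markers, and Gclm 0.095 as a mean over cells. Prdx1 became 0.0017 with TMM factors, 0.17 in cells with at most 30% Gm transcripts and 0.017 without the WT library richest in macrophage markers. Of 176 genotype values under alternatives, 162 kept direction and call. With the mouse number as a replicate block 0 genes were called and Txnrd1 had an adjusted p of 0.915 by limma. The deviations of mice of equal number had r of 0.164, -0.212 and -0.266, so the numbers did not pair mice 2 and 3. Mice 1 of both genotypes were alike in their unused barcodes and red cell transcripts.

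For the immediate early comparison, genes called lower numbered 260 without barcodes over 20000 transcripts, 43 in cells with at most 30% Gm transcripts, 48 with no filter, 29 with no replicate block, 80 in thinned cells and 97 to 161 without each mouse. Those called higher numbered 69, 114, 96 and 88 under the second to the fifth of these. Ftl1 lost its call in cells with at most 30% Gm transcripts (0.45) and with no replicate block (0.55, adjusted p = 0.295 by limma), and held it without each mouse. Fth1 turned to -0.0033 without barcodes over 20000 transcripts, -0.042 in cells with at most 30% Gm transcripts, -0.015 with 2 parts in place of 3 and -0.018 without the 5 libraries, and ran from -0.017 to 0.075 without each mouse. Srxn1 ran from -0.15 to 0.62 without each mouse. Without the 5 libraries Txnrd1 became -0.019, Gclm 0.0095 and Prdx1 0.013. Gclm became 0.027 with 2 parts and Prdx1 0.29 in thinned cells. Of 139 such values, 121 kept direction and call.

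With Gm genes in the total, the log2 ratio of MCs to Myh11-GFP cells became 1.95 for Ftl1 and -2.04 for Txn1, and 154 of 160 values moved by less than the spread. The cause of these changes was not tested. The alternatives on barcodes over 20000 transcripts, the 5 libraries, the share of Gm transcripts, the barcodes not in use and the sets of mice were chosen after seeing the data. A quasi-likelihood test on counts was planned and not run. Low counts limit Nqo1 and Slc7a11 most.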
